A study of Mus musculus with 3 samples.

Results

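The cells described here are glia of the postnatal mouse prefrontal cortex that carry Sfrp1 and Igfbp5 together, referred to below as Sfrp1+Igfbp5+ glia. They were chosen by their expression. A cell was a member if Sfrp1 and Igfbp5 each stood at ln(3) or more, which is at least 2 corrected counts, and if Slc1a3 was above 0. Members could hold at most 1 of the dividing-cell genes Mki67, Top2a, Cenpf and Birc5, at most 1 of the ependymal genes Foxj1 and Ccdc153, and at most 1 of the immune and vascular genes Csf1r, Cldn5, Kcnj8 and Dcn. This selected 240 of 14192 cells: 101 of 4775 in library 1, 114 of 5134 in library 2 and 25 of 4283 in library 3. The working name of the population places it in the germinal zone, the layer along the brain ventricles where neural stem cells lie. No position in the tissue was measured.

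All 3 libraries come from 1 group: mice of both sexes that inhaled about 3% sevoflurane, a volatile general anaesthetic, on postnatal day 6 and were killed on the same day. An unexposed group is not among the samples, so no value below measures a response to sevoflurane. Prefrontal cortex was processed on the 10x Genomics droplet platform. The labels' protocols speak of flash-frozen tissue and Trizol RNA and do not say how single cells were obtained, nor whether the libraries are separate animals. P-values therefore measure only the spread between these libraries, which may be technical.

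Glia of the germinal zone descend from radial glia, the stem cells of the embryonic forebrain, and some of them stay on as adult neural stem cells that make neurons and glia. They share many genes with ordinary astrocytes, including the glutamate transporter Slc1a3. Sfrp1 encodes a secreted protein that binds Wnt ligands and Igfbp5 a secreted protein that binds insulin-like growth factors. In the GENCODE annotation of mm10, Sfrp1 lies on chromosome 8 from 23411502 to 23449632 (plus strand), Igfbp5 on chromosome 1 from 72857932 to 72874884 (minus strand) and Slc1a3 on chromosome 15 from 8634124 to 8710764 (minus strand).

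Sfrp1 was above 0 in 2549 cells and Igfbp5 in 1463, and 690 cells had both. In 293 cells both reached 2 corrected counts, and 280 of these had Slc1a3. The limits on other lineages then removed 37 cells with at least 2 of the dividing genes, 1 with both ependymal genes and 3 with at least 2 of the immune and vascular genes (1 cell fell under 2 of these limits). Members held a median of 7 corrected counts of Sfrp1 (range 2 to 16), 5 of Igfbp5 (2 to 32) and 15 of Slc1a3 (1 to 45). Of the 240, 69 had Sfrp1 or Igfbp5 at exactly 2 corrected counts, just inside the rule. Another 269 cells met the other conditions with both genes above 0 but stayed just outside it. Of these, 111 had both at 1, 108 had enough Sfrp1 and 1 count of Igfbp5, and 50 had enough Igfbp5 and 1 count of Sfrp1. The plot of cells by these genes shows a continuous spread across the threshold and no gap.

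**Figure D1:**
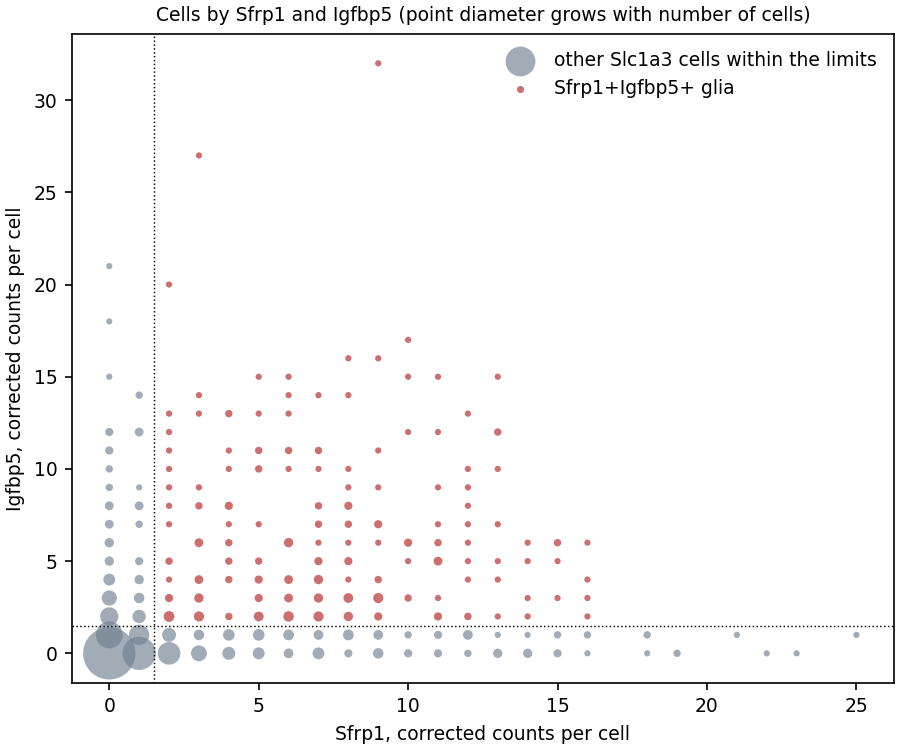
Corrected counts of Igfbp5 (vertical axis) against those of Sfrp1 (horizontal axis) in Slc1a3 cells that passed the limits on other lineages; point size grows with the number of cells at that pair of values, and dotted lines mark the rule. The 240 Sfrp1+Igfbp5+ glia (red) run on without a gap into cells just outside the rule, and 4905 cells have neither gene.

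The glia made up 2.12% of the cells of library 1 (95% exact binomial interval 1.73% to 2.56%), 2.22% of library 2 (1.84% to 2.66%) and 0.584% of library 3 (0.378% to 0.860%), a mean of 1.64% ± 0.916 (SD, n = 3). Intervals cover counting error only. Library 3 thus stood apart, and values without it are given below for some of the named genes whose call or fold moved. Folds of genes given without such a value may also have moved. Astrocytes, gated as cells with Aqp4, Gja1 and Slc7a10 all above 0 under the same limits and not among the Sfrp1+Igfbp5+ glia, took 18.5%, 22.7% and 19.4% of the 3 libraries. Ependymal cells, with Foxj1 and Ccdc153 both above 0, took 1.34%, 0.214% and 0.0233%. Library 1 therefore held most of the ependymal cells, 64 of 76, while libraries 1 and 2 held similar shares of Sfrp1+Igfbp5+ glia. How far each dissection reached toward the ventricle was not tested.

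Of the 4 genes given as markers of this population, 3 are part of the rule and the fourth, Ttr, the transthyretin gene of the choroid plexus, was at 0 in all 240 members. A count of 0 in 240 cells allows up to 1.25% of cells with a corrected count of Ttr, and does not limit the share that express it below detection. Ttr was above 0 in 134 cells of the whole table, and 2 cells, both in library 1, held 1850 and 1619 corrected counts while no other cell held more than 1. Of the 134, 4 had both Sfrp1 and Igfbp5 at 2 corrected counts or more (1 in library 1 and 3 in library 3). None of these 4 met the rest of the rule, so the 0 in members depends in part on its other conditions. Of 14 choroid plexus genes, 8 were at 0 in every member and 3 members held 2 or more. Their summed level ran from 17.3 to 49.6 CPM in the members of the 3 libraries and from 23.9 to 28.3 CPM in astrocytes. Among markers of other cell types, 20 members held at least 2 of 6 neuroblast markers, 8 at least 2 of 6 oligodendrocyte precursor markers, 15 at least 2 of 6 microglial markers, and none at least 2 of 5 markers of the excitatory lineage. At least 2 of 4 mural markers occurred in 40 members (16.7%, against 6.70% of astrocytes). Of these 40, 39 held Pdgfrb, 34 Rgs5 and 33 both. Rgs5 averaged 87.7, 132 and 69.0 CPM in the glia and 106, 119 and 177 CPM in astrocytes. Pdgfrb was above 0 in 96 members and averaged 96.8, 78.0 and 140 CPM in the 3 libraries, against 42.4, 39.6 and 42.7 CPM in astrocytes. Vtn, a defining pericyte gene, averaged 13.6, 5.77 and 7.64 CPM in the glia and 41.5, 61.6 and 58.8 CPM in astrocytes. In library 3 the fibroblast gene Dcn averaged 363 CPM, all from 1 of its 25 members, and stood at 0 in the members of libraries 1 and 2. At least 2 of 4 erythroid markers occurred in 165 members (68.8%, against 72.5% of astrocytes). Scrublet marked 2 of the 240 as suspected doublets, and 7 members had a barcode that also occurred in another library.

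CPM here means corrected counts scaled to a total of 1000000 in each cell, averaged over the cells of a class within a library. A gate on astrocytes served as the main comparison, and 877 dividing Slc1a3 cells, with at least 3 of the 4 dividing genes, as the second. Folds are log2 ratios of mean CPM with 10 CPM added to both sides, which understates the fold of weakly expressed genes, and are given with their standard error (SE). A gene was called where limma's Benjamini-Hochberg adjusted p was below 0.05 over all 9415 genes tested. Members had a median of 2485.5 detected genes and 5465 corrected counts, fewer than astrocytes (2766 and 6277) and dividing cells (3110 and 6541). The part of this depth difference in the results was not tested.

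Against astrocytes, 2737 of the 9415 genes passed the test (29.1%), 1438 of them higher in the Sfrp1+Igfbp5+ glia (15.3%) and 1299 lower (13.8%), with a median log2 fold of 0.00 over all genes. These shares are the background for the counts of called list genes below. The lists were chosen with earlier results of these data known. With each library left out in turn, 553 of the higher and 479 of the lower genes were called every time; the total fell to 1348 without library 1 and 1382 without library 2, and was 2957 without library 3. With class means taken over the deposited natural log values, 2873 were called, 1140 higher and 1733 lower. These glia shared the level of some astrocyte genes, held far less of others, and held more of several radial glia and stem cell genes. The genes that set the gates are described and not tested. Sfrp1 averaged 1317, 1271 and 1100 CPM in the members of the 3 libraries, against 93.8, 62.0 and 87.4 in astrocytes. Igfbp5 averaged 921, 1278 and 598 CPM, against 42.3, 26.6 and 33.6. Of the astrocyte gate genes, which the rule for the glia did not use, Gja1 was above 0 in 225 members, Slc7a10 in 155 and Aqp4 in 154. All 3 were above 0 in 101 members (43, 48 and 10 by library), and none in 6. A refit with these 101 members, chosen after seeing the data, and one with at least 3 corrected counts of both Sfrp1 and Igfbp5, called the stricter rule, are given below where they ended a call. With the 101 members, which are fewer cells, 740 of the 1438 higher and 729 of the 1299 lower genes kept their call.

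Radial glia and stem cell genes were mostly higher. Of 21 tested, 14 were higher in the Sfrp1+Igfbp5+ glia and 5 lower, with a median log2 fold of 0.69, beside 15.3% higher and a median of 0.00 over all genes. Only 7 of the 14 were called with each library left out: Nes, Pax6, Prom1, Sox2, Sox9, Veph1 and Vim. In the 101 members that also held all 3 astrocyte genes, 13 of the 14 were called higher, beside 740 of 1438 over all genes. Veph1, which encodes a membrane-associated protein of the ventricular zone, averaged 93.8, 90.8 and 129 CPM in the 3 libraries, against 3.49, 1.15 and 3.99 CPM in astrocytes, so that the groups did not overlap. Its log2 fold was 3.14 ± 0.19 (adjusted p = 4.3e-07). It was above 0 in 97 members (40.4%; 37.1% after thinning each cell to 4400 counts), against 1.46% of astrocytes (1.08% thinned) and 0% of 1015 microglia, which serve as a level for stray RNA. Vim, an intermediate filament of immature glia, averaged 510, 582 and 563 CPM against 155, 147 and 166, a log2 fold of 1.76 ± 0.31 (adjusted p = 0.0011). Pax6, a transcription factor of dorsal radial glia, averaged 380, 420 and 416 CPM against 109, 127 and 122, a log2 fold of 1.68 ± 0.10 (adjusted p = 4.1e-07). Pax6 was above 0 in 195 of the 240. All 3 of these genes were high in each library.

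Other stem cell genes were also higher by smaller folds. The intermediate filament Nes had a log2 fold of 1.16 ± 0.17, the surface glycoprotein Prom1 1.14 ± 0.17 and the glial transcription factor Sox9 0.98 ± 0.09, all called with any library left out. Under the stricter rule the log2 fold of Prom1 was 0.64 and was not called (adjusted p = 0.19). The genes of the list that were lower included Lrig1, a brake on growth factor receptors that marks quiescent stem cells in the adult brain. It averaged 13.7, 8.98 and 40.0 CPM in the glia against 133, 124 and 138 in astrocytes, a log2 fold of -2.33 ± 0.29 (adjusted p = 8.5e-05). The adhesion molecule Vcam1 was lower with a log2 fold of -0.96 ± 0.17 and the fatty acid binding protein Fabp7 with -0.80 ± 0.08. The list therefore did not move as one.

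Gfap, the intermediate filament of astrocytes and adult stem cells, varied widely between libraries. It averaged 2025 and 2712 CPM in the members of libraries 1 and 2 but 287 CPM in those of library 3. Astrocytes held 223, 287 and 226 CPM, so the member value of library 3 did not clear the astrocyte range. The log2 fold over all libraries was 2.22 ± 0.48 (adjusted p = 0.0039); it was no longer called without library 1 (adjusted p = 0.11) or without library 2 (0.096), nor under the stricter rule (0.057). Without library 3 the log2 fold was 3.16 (adjusted p = 2.0e-08). Gfap was above 0 in 79 of 101 members of library 1, 104 of 114 in library 2 and 12 of 25 in library 3. Hopx, a homeodomain protein of radial glia and quiescent stem cells, averaged 114, 245 and 47.1 CPM against 17.1, 28.0 and 27.8 (log2 fold 1.84 ± 0.35, adjusted p = 0.0019, 0.069 without library 1 and 0.056 under the stricter rule), and its log2 fold was 2.47 without library 3. Thbs4, a secreted matrix protein, averaged 42.6, 117 and 0 CPM against 1.44, 0.417 and 0, and was above 0 in 40 members, none of them in library 3 (log2 fold 1.94 ± 0.54, adjusted p = 0.018, and 0.18 without library 1). Its log2 fold was 1.10 without library 2 (adjusted p = 0.21) and 2.90 without library 3 (1.2e-05). Thbs4 was also not called with 1 CPM added in place of 10 (adjusted p = 0.052) or without the filter on low values (0.082).

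Position genes of the forebrain likewise differed among the members. Tfap2c, a transcription factor of basal progenitors, averaged 55.1, 63.3 and 27.0 CPM in the glia and 1.28, 0.173 and 0.246 CPM in astrocytes. The log2 fold was 2.41 ± 0.20 (adjusted p = 3.4e-06), and the libraries of the 2 classes did not overlap. Emx1, the homeobox gene of the cortical (dorsal) ventricular wall, averaged 46.8, 102 and 12.2 CPM against 17.7, 18.6 and 10.8 (log2 fold 1.03 ± 0.32, adjusted p = 0.031, and 0.20 without library 1). The log2 fold of Emx1 was 0.56 without library 2 (adjusted p = 0.27), 1.5 without library 3 (0.00039) and 0.64 under the stricter rule (0.41). Its call was also lost with 1 CPM added (0.076), without the filter (0.11), without the library block (0.089) and in a fit of only the 2 classes (0.054). Fezf2, a zinc-finger gene of cortical progenitors that was chosen after its values were seen, averaged 61.5, 110 and 6.77 CPM against 4.35, 4.76 and 2.05 (log2 fold 1.94 ± 0.39, adjusted p = 0.0027, 0.083 without library 1 and 0.057 without library 2), with a log2 fold of 2.67 without library 3. Its adjusted p was 0.055 under the stricter rule and 0.065 in the members with all 3 astrocyte genes. Gsx2, the homeobox gene of the striatal (lateral) wall, averaged 17.7, 0 and 53.1 CPM against 1.13, 0 and 3.59 and was not called (log2 fold 1.18, adjusted p = 0.061). Its log2 fold was 1.77 without library 2 (adjusted p = 0.012) and 0.66 without library 3 (0.20), and its adjusted p was 0.048 against astrocytes without Sfrp1 and Igfbp5. Of 16 position genes tested, 7 were higher and 2 lower, with a median log2 fold of -0.06, beside 15.3% higher and 13.8% lower over all genes. Of the 7, 2 were called with each library left out.

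Dorsal and lateral genes were not found in the same member, but few members held Gsx2 and none of those lay in library 2. Emx1 or Fezf2 was above 0 in 117 members, with 39 of them in library 1, 76 in library 2 and 2 in library 3; Gsx2 was above 0 in 13, of which 9 were in library 1 and 4 in library 3. No member held Gsx2 with either of them, nor with Tfap2c. Gfap was above 0 in 110 of the 117 members with Emx1 or Fezf2 (94%) and in 85 of the other 123 (69.1%). Within library 1 Gfap was above 0 in 37 of 39 members with and 42 of 62 without these genes, and within library 2 in 71 of 76 with and 33 of 38 without. Of the 40 Thbs4 members, 28 held Emx1 or Fezf2, 29 held Hopx and 38 held Gfap. These counts are descriptions of cells that share a library, with no test, and a gene at 0 in a cell may have been missed at this depth.

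**Figure D2:**
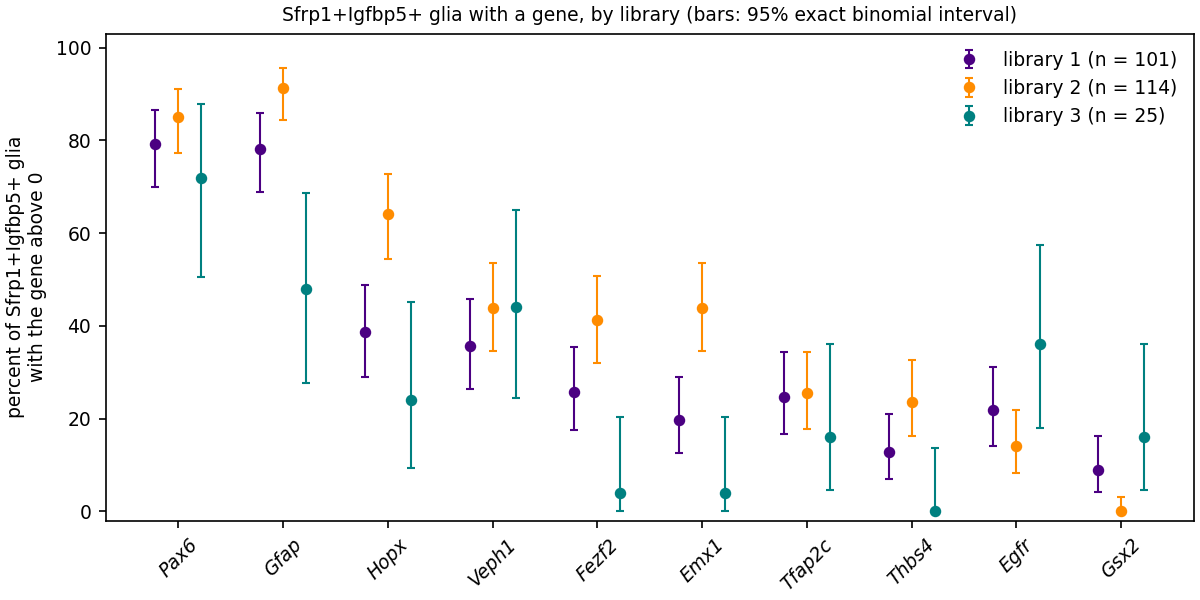
Percent of Sfrp1+Igfbp5+ glia with a gene above 0 (vertical axis) for 10 genes, by library, with 95% exact binomial intervals that cover counting error only. Gfap, Hopx, Fezf2, Emx1 and Thbs4 were found in more members of library 2 than of library 3, while Gsx2 was found in 0 of 114 members of library 2; Veph1 and Pax6 varied less.

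Genes of activated progenitors, which divide and give rise to neuroblasts, were split. Of 14 tested, 3 were higher than in astrocytes and 4 lower, with a median log2 fold of 0.22, beside 15.3% higher and 13.8% lower over all genes. The receptor Egfr, which marks activated stem cells, averaged 46.9, 34.8 and 85.7 CPM in the glia and 155, 152 and 148 in astrocytes, a log2 fold of -1.37 ± 0.24 (adjusted p = 0.001). The oligodendrocyte lineage factor Olig2 averaged 14.4, 24.4 and 55.2 CPM against 205, 186 and 170 (log2 fold -2.37 ± 0.26), and the cell cycle starter Ccnd1 16.6, 23.0 and 54.2 against 157, 147 and 147 (-2.06 ± 0.26). All 3 were lower with each library left out. Without library 3 the log2 fold of Olig2 was -2.82. Btg2, an antiproliferative gene of progenitors, was higher, with a log2 fold of 1.23 ± 0.17, but 0.61 (adjusted p = 0.18) in the members with all 3 astrocyte genes. None of the 3 higher genes of this list was called in those members.

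Mature astrocyte genes were lower. Of 25 tested, none was higher and 20 were lower (median log2 fold -0.95), beside 15.3% and 13.8% over all genes. With each library left out, 18 of the 20 were called. The astrocyte gate itself requires 3 astrocyte genes, which favours this direction. In the 101 members that also held all 3, 16 of the 20 were still called lower, beside 729 of 1299 over all genes. Fgfr3, a growth factor receptor of astrocytes, averaged 69.4, 45.6 and 41.9 CPM in the glia and 321, 327 and 329 in astrocytes (log2 fold -2.45 ± 0.26, adjusted p = 2.7e-05). Chrdl1, a secreted protein that matures synapses, averaged 14.8, 14.1 and 34.0 CPM against 174, 158 and 149 (-2.51 ± 0.24). The GABA transporter Slc6a11 had a log2 fold of -2.12 ± 0.24, the protease Htra1 -2.10 ± 0.21 and the bicarbonate transporter Slc4a4 -1.94 ± 0.13. The main glutamate transporter Slc1a2 was lower by less, with 1570, 1520 and 1319 CPM against 2377, 2391 and 2379 (-0.70 ± 0.11).

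A few astrocyte genes did not pass the test. The glycolytic enzyme Aldoc averaged 2171, 2239 and 1489 CPM in the glia and 2024, 2098 and 1972 in astrocytes (log2 fold -0.07 ± 0.14, adjusted p = 0.75, and 0.10 without library 3). The membrane protein Mlc1 averaged 991, 907 and 1031 CPM against 1015, 955 and 968 (-0.01 ± 0.12, 95% interval -0.28 to 0.26). Ndrg2 had a log2 fold of -0.05 ± 0.11. Clu, a secreted chaperone, averaged 2980, 3547 and 1492 CPM against 1502, 1591 and 1737 and was not called (adjusted p = 0.074). It was called higher without library 3 (6.4e-06) and, narrowly, against astrocytes without Sfrp1 and Igfbp5 (0.0496).

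**Figure D3:**
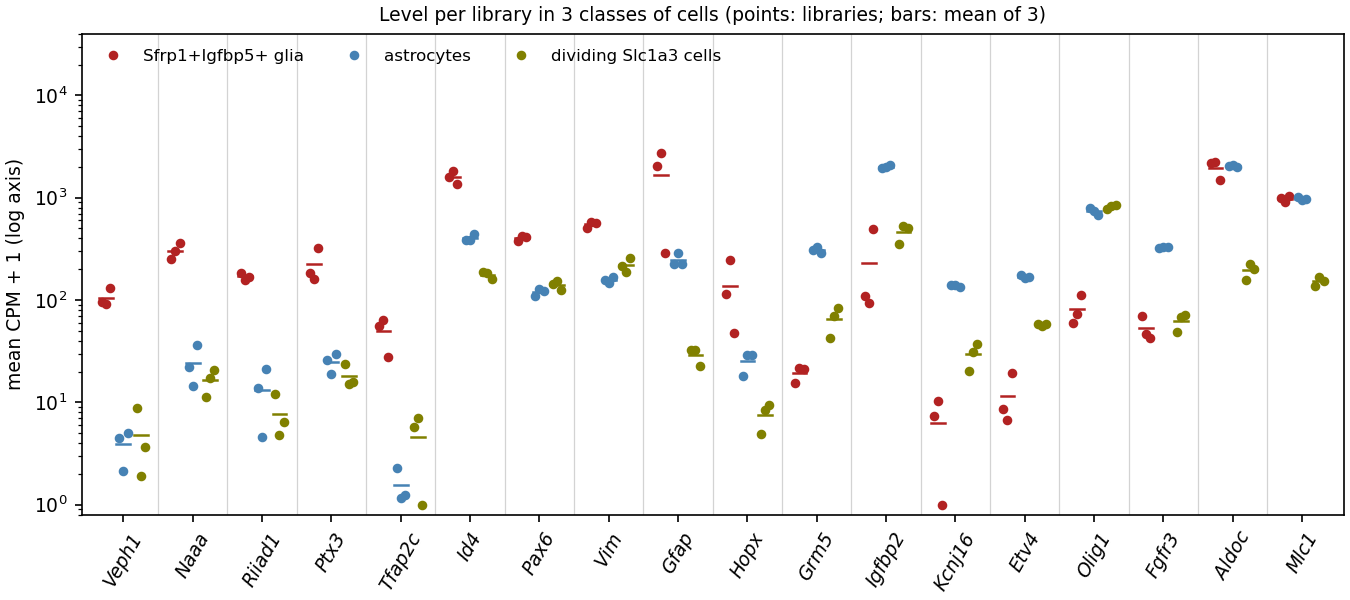
Mean CPM + 1 (vertical log axis) of 18 genes in each of 3 libraries (points) with the mean of the 3 (bars), in Sfrp1+Igfbp5+ glia, astrocytes and dividing Slc1a3 cells. Veph1, Naaa, Riiad1, Ptx3 and Tfap2c are higher in the glia in every library, Gfap and Hopx fall toward the astrocyte level in library 3, Grm5, Igfbp2, Kcnj16 and Etv4 are lower than in astrocytes, and Aldoc and Mlc1 overlap with them.

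Outside the lists, the genes with the largest folds included Naaa and Riiad1, which ependymal cells also hold. Naaa, an acid amidase that breaks down fatty acid ethanolamides, averaged 248, 299 and 362 CPM in the glia against 21.0, 13.4 and 35.1 in astrocytes (log2 fold 3.28 ± 0.21, adjusted p = 5.25e-07). It was above 0 in 172 members. Riiad1 averaged 182, 158 and 168 CPM against 12.6, 3.57 and 20.2 (3.09 ± 0.22, adjusted p = 1.2e-06) and was above 0 in 111 members (46.3%; 40.4% thinned), against 3.75% of astrocytes (2.85% thinned) and 0.788% of microglia. In ependymal cells Riiad1 averaged 2115, 1536 and 2377 CPM. The cilia regulator Foxj1, a gene of the rule, was above 0 in 38 members and in 2.33% of astrocytes, while the ependymal genes Ccdc153 and Tmem212 were above 0 in 1 member each. At least 2 of 7 ependymal markers occurred in 36 members (15%, against 1.53% of astrocytes). The part of ependymal RNA in these folds was not tested. Ptx3, a secreted pentraxin of innate immunity, averaged 184, 161 and 320 CPM against 24.8, 17.9 and 28.9 (2.73 ± 0.20), and 0 in microglia.

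The other genes named by rank as higher were the calcium-binding S100a11 and its relative S100a10 (log2 folds 2.63 ± 0.27 and 2.55 ± 0.24), the imprinted zinc-finger gene Plagl1 (2.51 ± 0.21), the tetraspanin Tspan18 (2.34 ± 0.18), the potassium channel Kcnh7 (2.31 ± 0.29), the microfibril gene Mfap2 (2.30 ± 0.26), the secreted protein Mia (2.30 ± 0.26), the ubiquitin ligase Trim2 (2.28 ± 0.19) and Dleu7 (2.26 ± 0.26). The naming rule required the same direction in all 3 libraries. Each of these genes stayed called with any library left out. Kcnh7 and Dleu7 reached their highest member values in library 3 (95.8 and 117 CPM), whereas Mia and Trim2 had their lowest there (51.2 and 225 CPM). Without library 3 the log2 folds of Kcnh7 and Dleu7 were 1.88 and 1.81, and those of Mia and Trim2 were 2.66 and 2.57.

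Among the lowest were astrocyte channels, secreted factors and lineage genes. The potassium channel Kcnj16 averaged 6.4, 9.39 and 0 CPM in the glia against 139, 140 and 132 in astrocytes (log2 fold -3.32 ± 0.24, adjusted p = 1.4e-06). Timp4, an inhibitor of matrix proteases, averaged 25.4, 26.2 and 13.3 CPM against 314, 295 and 288 (-3.32 ± 0.16). Olig1, the partner of Olig2, averaged 58.3, 72.3 and 110 CPM against 791, 734 and 684 (-3.09 ± 0.17). The homeobox gene Dbx2 averaged 22.1, 19.8 and 28.2 CPM against 249, 244 and 263 (-2.98 ± 0.15). Pla2g3, Chl1, Gabbr2, Hbegf, Sez6l, Fndc5 and Gatm had log2 folds between -3.25 and -2.69. Hbb-bt, a beta globin of red blood cells, was also among the 12 (-2.92 ± 0.22). The summed level of 4 erythroid genes ran from 530 to 1441 CPM in the glia and from 3386 to 6558 CPM in astrocytes, so the level of globin RNA differed between the classes. Its part in the other differences was not tested.

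Wnt signalling works through Frizzled receptors and Lrp co-receptors, which stabilise beta-catenin, and secreted Sfrp proteins bind the ligands outside the cell. Against astrocytes, 2 of 12 tested ligands and receptors were higher and 6 lower (median log2 fold -0.66), beside 15.3% and 13.8% over all genes. Of the 2 and the 6, none and 4 were called with each library left out. Lgr6, a receptor for R-spondins, averaged 0, 5.71 and 0 CPM in the glia against 71.1, 62.5 and 58.5 (log2 fold -2.67 ± 0.19). Fzd10 averaged 0, 1.28 and 0 CPM against 48.7, 43.5 and 52.1 (-2.48 ± 0.16), and Fzd9 9.08, 11.6 and 14.1 against 66.6, 55.8 and 76.2 (-1.82 ± 0.17). The ligand Wnt5a was lower as well (-1.54 ± 0.22). Of 4 tested inhibitors of the pathway 1 was higher and 2 lower, beside 15.3% and 13.8% over all genes. The 2 lower ones are feedback inhibitors that Wnt signalling itself induces. Nkd1 averaged 9.94, 18.5 and 12.9 CPM against 75.5, 83.5 and 58.7 (-1.80 ± 0.20), and the ubiquitin ligase Znrf3 had a log2 fold of -1.64 ± 0.25. Of 4 tested target and effector genes 1 was higher and 2 lower, beside the same shares. The higher one was not called with each library left out. Sp5 was lower (-0.95 ± 0.18, and -0.62 with an adjusted p of 0.097 in the members with all 3 astrocyte genes). Axin2 was lower too (-1.20 ± 0.30, adjusted p = 0.010, 0.099 without library 1, and a log2 fold of -0.69 without library 3). Axin2 also missed the threshold with 1 CPM added (adjusted p = 0.052) and without the filter (0.0502). Among the genes that were higher, Dkk3 averaged 490, 392 and 191 CPM against 181, 171 and 161 (0.92 ± 0.24, adjusted p = 0.013, 0.17 without library 1 and 0.15 without library 2). Its log2 fold was 1.27 without library 3, and its adjusted p was 0.13 under the stricter rule, 0.070 in the members with all 3 astrocyte genes and 0.056 without the filter.

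Insulin-like growth factors act through the receptor Igf1r, and Igfbp proteins bind them outside the cell. Igfbp5 is high in the members by the rule, and Igfbp2, which the rule did not use, was lower than in astrocytes. Igfbp2 averaged 108, 91.8 and 493 CPM in the Sfrp1+Igfbp5+ glia and 1931, 1995 and 2068 in astrocytes, a log2 fold of -3.46 ± 0.35 (adjusted p = 1.6e-05). The member value of library 3 stood above those of the other libraries. Without library 3 the log2 fold was -4.17. Igfbp2 and Igfbp5 are neighbours on chromosome 1, where Igfbp2 runs from 72824503 to 72852474. Igf1r averaged 62.8, 55.7 and 42.1 CPM against 29.7, 26.1 and 27.9 (0.73 ± 0.14, adjusted p = 0.0015, and 0.051 without library 2). Of 8 genes tested in this group 2 were higher and 2 lower, with a median of 0.04, beside 15.3% higher and 13.8% lower over all genes.

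Notch signalling keeps stem cells undivided through Hes factors. Of 14 Notch genes tested, 4 were higher and 4 lower (median log2 fold -0.13), beside 15.3% higher and 13.8% lower over all genes. The receptor Notch2 averaged 241, 237 and 310 CPM against 96.4, 75.5 and 91.7 in astrocytes (log2 fold 1.47 ± 0.17, adjusted p = 4.1e-05). Its ligand Jag1 averaged 48.8, 27.2 and 45.8 CPM against 9.85, 7.44 and 7.35 (1.45 ± 0.18), and 0.37 with an adjusted p of 0.50 among the members with all 3 astrocyte genes. The nuclear partner Rbpj was higher by 0.67 ± 0.14, but by 0.15 (adjusted p = 0.72) in those members, in which 1 of the 4 higher Notch genes was called. In library 3, Jag1 averaged 423 CPM in the 2 members with Emx1 or Fezf2 and 12.9 CPM in the other 23. The ligand-like Dner (-1.39 ± 0.22), the feedback gene Nrarp (-1.26 ± 0.14) and the glycosyltransferase Lfng (-1.24 ± 0.16) were lower. The target Hes5 averaged 708, 540 and 891 CPM against 708, 653 and 765 and was not called.

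Of 6 Hedgehog genes tested 4 were higher and 1 lower (median log2 fold 0.62), beside 15.3% and 13.8% over all genes. The co-receptor Cdon averaged 24.5, 26.8 and 30.4 CPM against 3.90, 2.35 and 2.39 (1.53 ± 0.17) and Gas1 291, 256 and 279 against 138, 116 and 119 (1.09 ± 0.19). In library 3, Gas1 averaged 1582 CPM in the 2 members with Emx1 or Fezf2 and 166 CPM in the other 23. The receptor Ptch1, which is also a target of the pathway, averaged 50.9, 39.2 and 62.8 CPM against 146, 147 and 139 (-1.35 ± 0.15). None of the 4 higher Hedgehog genes was called in the members with all 3 astrocyte genes, where the log2 fold was 0.80 for Cdon (adjusted p = 0.12) and 0.45 for Gas1 (0.20), and Cdon was not called under the stricter rule either (0.096). Among 14 BMP and Id genes 3 were higher and 5 lower (median -0.28), beside 15.3% higher and 13.8% lower over all genes. Of the 3 and the 5, 1 and none were called with each library left out. Id4, an inhibitor of proneural factors that holds stem cells in quiescence, averaged 1582, 1823 and 1367 CPM against 383, 387 and 438, a log2 fold of 1.95 ± 0.13 (adjusted p = 6.2e-07). Its relative Id2 was lower, at 525, 562 and 1206 CPM against 1500, 1535 and 1525 (-1.09 ± 0.20, adjusted p = 0.0013, 0.061 without library 1 and 0.067 in the members with all 3 astrocyte genes). Of 12 FGF pathway genes none was higher and 7 were lower (median -0.73), beside the same 15.3% and 13.8%. Only Dusp6 and Etv4 were called lower with each library left out. Etv4 and Dusp6, which FGF signalling induces, averaged 7.6, 5.73 and 18.2 CPM against 175, 162 and 167 (-3.16 ± 0.18) and 15.3, 27.8 and 12 against 84.2, 76.3 and 75.3 (-1.68 ± 0.17).

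Matrix and lipid genes were more often lower than higher. Of 16 matrix and adhesion genes 3 were higher and 8 lower (median log2 fold -0.55), beside 15.3% higher and 13.8% lower over all genes. All 8 stayed lower with each library left out. Cyr61, a matrix protein induced by YAP, averaged 667, 744 and 259 CPM against 94.3, 69.0 and 90.4 (log2 fold 2.46 ± 0.26, and 2.98 without library 3). The link protein Hapln1 (-2.02 ± 0.18), the laminin receptor subunit Itga6 (-1.65 ± 0.17) and the proteoglycan Bcan (-1.60 ± 0.13) were lower. Of 16 lipid genes 1 was higher and 10 lower (median -0.49), beside the same 15.3% and 13.8%. With each library left out, 6 of the 10 were called. Dbi, an acyl-CoA binding protein, was higher by 0.70 ± 0.10, and the desaturases Scd1 (-2.05 ± 0.15) and Fads2 (-1.62 ± 0.15) and the fatty acid binding protein Fabp5 (-1.39 ± 0.10) were lower.

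Receptors and channels on which anaesthetics act or which glia use to sense transmitters were tested as a group of 19, of which 4 were higher and 7 lower. The shares over all genes were 15.3% higher and 13.8% lower. All 7 lower genes and none of the higher ones were called with each library left out. The metabotropic glutamate receptor Grm5 averaged 14.4, 20.6 and 20.3 CPM in the glia against 306, 328 and 285 (log2 fold -3.48 ± 0.21, adjusted p = 4.3e-07). Grm3 averaged 69.8, 82.4 and 67.9 CPM against 342, 348 and 331 (-2.08 ± 0.14) and the AMPA receptor subunit Gria2 121, 129 and 302 against 662, 683 and 639 (-1.91 ± 0.21). The GABA-A receptor subunits Gabra2 (-1.64 ± 0.26) and Gabrg1 (-1.48 ± 0.19) were lower. Without library 3 the log2 fold was -2.34 for Gria2 and -2.09 for Gabra2. Gabrb1 averaged 211, 289 and 227 CPM against 177, 167 and 157 (0.50 ± 0.15, adjusted p = 0.025, 0.059 without library 1, 0.24 without library 2, 0.077 under the stricter rule and 0.070 with 1 CPM added). These are levels in exposed tissue and compare cell classes, not exposures.

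The rule and the astrocyte gate share the limit on dividing genes, and no S phase or mitosis gene was called lower than in astrocytes. Of 10 genes of G2 and mitosis, 1 was higher than in astrocytes and none lower, beside 15.3% and 13.8% over all genes. This was Hmgb2, at 233, 249 and 293 CPM against 118, 115 and 120 (log2 fold 1.07 ± 0.17). Against astrocytes gated without the limits on other lineages its log2 fold was 0.35 and was not called (adjusted p = 0.13). Of 14 S phase genes 3 were higher and none lower (median log2 fold 0.56), beside 15.3% higher and 13.8% lower over all genes. None of the 3 was called each time a library was left out. Of 5 cell cycle inhibitors 1 was higher and 2 were lower (median log2 fold -0.30), beside the same 15.3% and 13.8%. Cdkn1b was the gene called higher, by 0.60 ± 0.10, and by 0.32 (adjusted p = 0.34, not called) under the stricter rule. Of 8 immediate early genes 5 were higher and none lower, beside 15.3% and 13.8% over all genes. Of the 5, Fos, Jund and Jun were called with each library left out. Fos averaged 460, 464 and 312 CPM against 159, 109 and 128 (1.57 ± 0.14). Jund and Jun had log2 folds of 1.12 ± 0.08 and 1.06 ± 0.14. How far handling of the tissue bears on these genes was not tested.

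**Figure D4:**
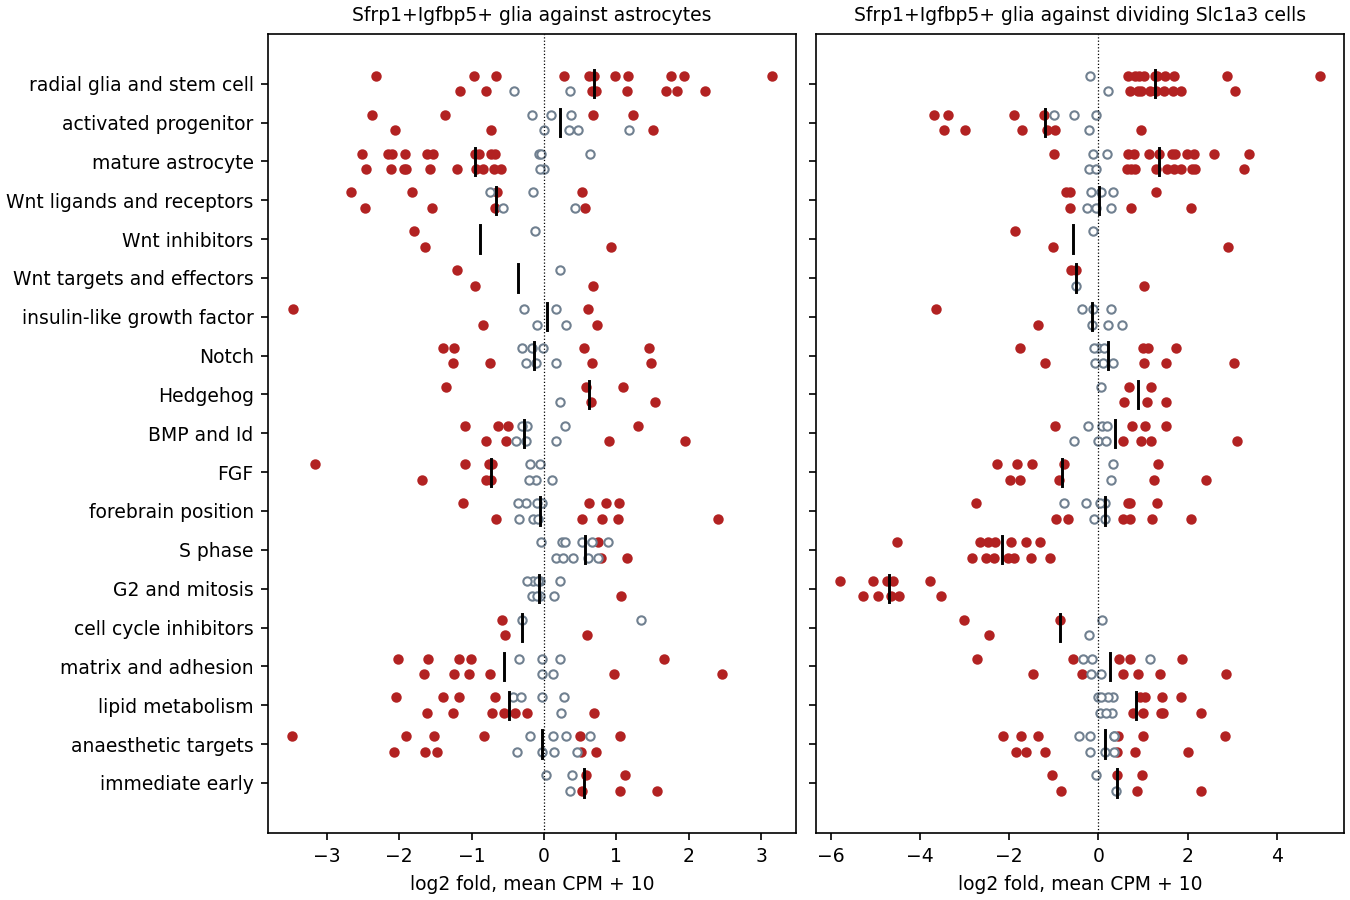
Log2 fold of every tested gene of the 19 lists (horizontal axes) in Sfrp1+Igfbp5+ glia against astrocytes (left) and dividing Slc1a3 cells (right); red points passed the test, open points did not, black bars mark medians. On the left 14 of 21 radial glia genes are higher and 20 of 25 mature astrocyte genes lower, beside 15.3% and 13.8% over all genes. On the right 19 of 21 and 20 of 25 are higher, beside 18.5% over all genes. The S phase and mitosis genes, which the gates set, are lower on the right.

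The comparison with dividing Slc1a3 cells asked what remains when the glia are set against dividing cells. These were a mixture: 39.3% held at least 2 of 6 astrocyte markers, 43.8% at least 2 neuroblast markers, 35.3% at least 2 oligodendrocyte precursor markers and 16.3% at least 2 microglial markers. The part of this mixture in the folds below was not tested. Of the 9415 genes 4914 were called (52.2%), 1746 higher in the Sfrp1+Igfbp5+ glia (18.5%) and 3168 lower (33.6%), with a median log2 fold of -0.18. With each library left out in turn, 1061 of the higher and 1868 of the lower genes were called every time. With each class centred on its median gene the median was -0.01, and 2394 were called higher and 2277 lower. The 6 genes named by rank as lower were all cell cycle genes and follow from the gates. Radial glia and stem cell genes were higher in 19 of 21 cases and lower in none (median 1.28), and 16 of the 19 were called with each library left out. Gfap averaged 31.5, 31.2 and 21.5 CPM in dividing cells, which put even the 287 CPM of library 3 above them (log2 fold 4.96 ± 0.48, adjusted p = 2.7e-06, and 5.83 without library 3). Veph1 was higher by 3.07 ± 0.19, Hopx by 2.89 ± 0.35 (3.52 without library 3) and Sox9 by 1.70 ± 0.09. Mature astrocyte genes, which were mostly lower than in astrocytes, were higher than in dividing cells in 20 of 25 cases and lower in 1 (median 1.37), and 17 of the 20 were called with each library left out. Clu was higher by 3.37 ± 0.25, Aldoc by 3.27 ± 0.14 and Mlc1 by 2.60 ± 0.12.

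Neurogenic genes were lower than in the dividing cells. Of 14 activated progenitor genes 1 was higher and 9 lower (median -1.19), beside 18.5% higher and 33.6% lower over all genes. Insm1, a factor of newborn neuroendocrine and neuronal cells, averaged 11.7, 16.1 and 6.77 CPM in the glia against 333, 269 and 198 (log2 fold -3.68 ± 0.22), Dlx1, a homeobox gene of interneuron progenitors, 9.52, 12.8 and 8.15 against 270, 178 and 200 (-3.47 ± 0.18) and Dlx2 14.0, 10.8 and 0 against 223, 127 and 162 (-3.37 ± 0.28). Olig2 was lower as well (-2.99 ± 0.26). Egfr averaged 83.7, 60.9 and 46.3 CPM in the dividing cells, and its log2 fold of -0.21 ± 0.24 was not called (adjusted p = 0.50) over all libraries. Without library 3 it was called lower (-0.69, adjusted p = 0.0026), and without library 1 or 2 its sign turned. In the members with all 3 astrocyte genes it was -0.65 (adjusted p = 0.045).

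Signalling genes gave a similar contrast. Notch2 averaged 29.6, 24.0 and 16.5 CPM in dividing cells and was higher in the glia by 3.04 ± 0.17, Hes5 by 1.74 ± 0.16 and Hes1 by 1.52 ± 0.18. Of 14 Notch genes 6 were higher and 2 lower, beside 18.5% higher and 33.6% lower over all genes. Id4 was higher by 3.10 ± 0.13 and Id3 by 1.52 ± 0.12. Of 14 BMP and Id genes 7 were higher (4 with each library left out) and 1 lower, beside the same shares over all genes. Of 12 FGF genes 3 were higher and 7 lower, beside the same shares over all genes. The FGF carrier Fgfbp3 was higher by 2.42 ± 0.23, and Dusp6 (-1.82 ± 0.17) and Etv4 (-1.75 ± 0.18) were lower. Dkk3 was higher by 2.90 ± 0.24 and Lrp4, a co-receptor, by 2.07 ± 0.15, while Igfbpl1, a gene of newborn neurons, had a log2 fold of -3.64 ± 0.41 (-4.31 without library 2 and -2.92 without library 3). Lipid metabolism genes were higher in 9 of 16 cases and lower in none (median 0.85), beside 18.5% and 33.6% over all genes. The 6 genes named by rank as higher were Fxyd1, a regulator of the sodium pump (3.67 ± 0.19), Naaa (3.62 ± 0.21), the ATP-hydrolysing ectoenzyme Entpd2 (3.58 ± 0.15), Riiad1 (3.44 ± 0.22), Mia (3.20 ± 0.26) and Ptx3 (3.05 ± 0.20).

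Cells just outside the rule, with both genes above 0 but at least 1 of them at 1 corrected count, gave values between the classes for several genes the rule did not use. Veph1 averaged 33.4, 18.2 and 25.9 CPM in those 269 cells, Naaa 107, 144 and 165, Id4 1092, 1109 and 1029 and Tfap2c 22.5, 16.2 and 0. Gfap averaged 1263, 1873 and 898 CPM there. Each of the first 4 lay between the values of astrocytes and of the Sfrp1+Igfbp5+ glia in its library, except Tfap2c in library 3, which was below both. In library 3 the cells just outside held more Gfap than the members did. Cells just outside that held Aqp4, Gja1 and Slc7a10 were also in the astrocyte gate, so these sets may share cells.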

How the data were processed

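Single cells of mouse prefrontal cortex were measured in 3 libraries of 1 group. The submitters' processing notes name the build mm10 and the tools CASAVA 1.8, Seurat and Cell Ranger. Values in the deposited table are on a natural log scale: undoing the log as exp(value) - 1 turned every one of the 34958786 entries above 0 into a whole number, to within 1e-06. These whole numbers, called corrected counts, summed to between 4422 and 8135 per cell. The authors' depth correction is not stated in the sources used here, the depth before it is unknown, and no model for raw counts was fitted. Library totals ran from 24612481 to 29581504 corrected counts.

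Members, gates and gene lists were chosen with earlier results of these data known. Cells were assigned by gates and not clustered. Corrected counts were scaled to CPM in each cell and averaged per gate and library. The log2 of this mean, with 10 CPM added, went into limma 3.58.1 (R 4.3.3), using its trend option and a block for library. The fit held 4 gates (Sfrp1+Igfbp5+ glia, astrocytes, dividing Slc1a3 cells and neuroblasts) and had 6 residual degrees of freedom, and it gives a mean of 25 cells the same weight as one of 1167. The test covered 9415 genes whose average over the gates reached 10 CPM, with Benjamini-Hochberg adjustment. The library is a block because the gates share each library's cells. Genes named outside the lists were the 12 highest and 12 lowest folds among called genes with the same direction in all 3 libraries (6 and 6 for dividing cells), leaving out gene models with numbered names. The fit was also run on simulated data. These gave each gene the same spread in every mean, so they could not test a mean of few cells. Suspected doublets were called with Scrublet in scanpy 1.11.5 on the corrected counts and kept. Shares of cells with a gene were also taken after thinning every cell to 4400 corrected counts, which left out none. Gene positions are those of the GENCODE vM21 annotation of the same build. Alternatives were the added CPM, the filter, the mean of log values, each library left out, the block, the gates, doublets and centring. Some genes of the lists are counted but not reported by name. Mitochondrially encoded genes were not analysed here.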

Additional observations from a re-analysis of the deposited data

How the results depend on the processing

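The count of genes called against astrocytes (2737) kept within 1.5 times under every alternative but those without library 1 or 2 (1348 to 2957 over the 3 refits) and that with members holding Aqp4, Gja1 and Slc7a10 only (1750, from fewer cells). The last, and astrocytes without Sfrp1 and Igfbp5, were chosen after seeing the data. Against dividing Slc1a3 cells (4914) it ran from 3402 to 5127 with a library left out. Without the replicate block 2683 and 4910 genes were called, and the pairing by library changed no call of a named gene but that of Emx1 (adjusted p = 0.089 without the block). The share of cells that were Sfrp1+Igfbp5+ glia (1.64%) was 3.53% with both genes only above 0, and 1.35% to 2.17% with a library left out. Of 1469 refits of the 98 genes named against astrocytes, 1409 kept direction and side of the threshold, 45 lost the call, 4 gained it and 11 turned sign; of 390 refits of 30 genes against dividing cells, 386 kept both. Signs turned only for values near 0: Aldoc (0.254 with the 3 astrocyte genes, and -0.16 to 0.10 over the refits without a library), Mlc1 (-0.054 to 0.028 without a library, 0.042 at ln(4), 0.021 without the astrocyte limits, 0.13 with the 3 astrocyte genes and 0.017 against astrocytes without Sfrp1 and Igfbp5), Ndrg2 (-0.12 to 0.030 without a library and 0.087 with the 3 astrocyte genes), Hes5 (-0.14 to 0.11 without a library) and Egfr against dividing cells (-0.69 to 0.052 without a library). The cause of these changes was not tested. Library 3 holds 25 of the 240 cells, which limits every value that rests on it, and genes near 10 CPM are held by few cells.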
